A study of Mus musculus with 2 samples.

Results

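The miR-15/16 family is a group of miRs whose 5p arms begin with the same bases and which repress overlapping sets of mRNAs. Members were taken from the deposited count tables by name, as every entry for miR-15a, miR-15b, miR-16, miR-195a, miR-322 or miR-497a, with both arms of each hairpin, which gave 13 of the 1886 listed miRs. The counts come from small RNA sequencing of sperm from 2 libraries, labelled as independent samples of wild-type C57BL/6J mice that were naive and 3 months old. The labels name no transgene or treatment, and how many mice gave each library is not stated. The study obtained the sperm by letting them swim out of the cut epididymis and then lysing other cells with detergent. The labels name a TruSeq kit for RNA sample preparation and the study a TruSeq kit for small RNA libraries, and which was used was not resolved. No second condition was analysed here, so the libraries give the levels of the family and the spread between replicates, and no test between conditions was possible. The names of the deposited tables carry a word for a post-treatment sample, which does not match the label naive and was not resolved.

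miRs are cut from hairpin transcripts, and either side of the hairpin, the 5p or the 3p arm, can be loaded into an Argonaute protein. The loaded arm finds its targets mainly by bases 2 to 8, the seed. The miR-15/16 family is known as a brake on the cell cycle and on survival, since its targets include G1 cyclins and the anti-apoptotic protein Bcl2. Loss of the miR-15a and miR-16-1 hairpins is a frequent lesion of chronic lymphocytic leukemia. miR-195a and miR-497a are known from withdrawal from the cell cycle in heart and skeletal muscle, and miR-322 is the mouse counterpart of human miR-424. miR-16 is expressed in most tissues and is abundant in red blood cells.

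The mature sequences of all 13 members were found in RefSeq for GRCm38.p6. They are shown for the 5p arms because these carried nearly all reads of the family, with the seed in capitals.
miR-16-5p: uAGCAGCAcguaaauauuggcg
miR-15a-5p: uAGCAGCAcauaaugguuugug
miR-15b-5p: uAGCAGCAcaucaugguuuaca
miR-195a-5p: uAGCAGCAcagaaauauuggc
miR-322-5p: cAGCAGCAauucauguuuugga
miR-497a-5p: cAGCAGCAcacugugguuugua
All 6 of these arms have the seed AGCAGCA. Counting positions from the 5′ end, miR-195a-5p differs from miR-16-5p by G10A and U11G over the 21 positions they share, and miR-15b-5p differs from miR-15a-5p by A12C, G20A, U21C and G22A over 22 positions. The study kept reads of at least 15 nucleotides and allowed no mismatch in its first mapping step. Over the 1608 listed miRs with a sequence in RefSeq, the longest run of bases that a member shared with any other listed miR was 16, between miR-195a-5p and miR-195b. For each other member it was at most 12 bases, shorter than the shortest read kept. These are runs without a mismatch. The study allowed a mismatch in its later mapping, and the step whose reads were counted is not given. The runs therefore cannot show whether reads with a mismatch were assigned to another member. miR-195b had no read in either library.

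The 3p arms each have a seed of their own. Those of miR-16 are shown because they alone distinguish its 2 hairpins, which give an identical 5p arm.
miR-16-1-3p: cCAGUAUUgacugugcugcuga
miR-16-2-3p: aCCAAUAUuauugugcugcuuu
Both hairpins follow with the mature arms in capitals, so that the shared 5p arm and the differing 3p arms can be compared.
Mir16-1: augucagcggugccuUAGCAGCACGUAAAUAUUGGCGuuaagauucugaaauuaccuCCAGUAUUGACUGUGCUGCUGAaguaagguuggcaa
Mir16-2: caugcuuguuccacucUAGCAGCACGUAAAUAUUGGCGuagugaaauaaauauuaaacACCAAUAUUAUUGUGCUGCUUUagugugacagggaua

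The 7 hairpins lie in 4 places of the genome, given here for GRCm38, the build named in the submitters' processing notes. In the GENCODE annotation, Mir15a (chr14:61632027-61632110) and Mir16-1 (chr14:61631880-61631972) lie on the minus strand with 54 bases between them, within Dleu2 (ENSMUSG00000097589.9), a gene for a long non-coding RNA on the same strand. Both hairpins are intronic in the 8 Dleu2 transcripts that span them, and Mir16-1 also overlaps an exon of 1 other Dleu2 transcript. Mir15b (chr3:69009772-69009835) and Mir16-2 (chr3:69009902-69009996) lie on the plus strand with 66 bases between them. They are intronic in the 5 spanning transcripts of Smc4 (ENSMUSG00000034349.14), the gene for a condensin subunit. Mir497 (chr11:70234717-70234800), the hairpin of miR-497a, and Mir195a (chr11:70235042-70235135) lie on the plus strand with 241 bases between them and outside other annotated genes except Mir497b, which overlaps Mir497 on the opposite strand. Mir322 (chrX:53054255-53054349) lies on the minus strand of chromosome X and overlaps no other annotated gene.

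Replicate 1 held 4049599 miR reads and replicate 2 held 5648067. Abundance is given as CPM, the reads of a miR per 1000000 miR reads of its library, and 3 reads correspond to 0.741 CPM at the depth of replicate 1 and 0.531 CPM at that of replicate 2. The 95% intervals are Wilson intervals of single libraries and cover counting error only, as the reads carry no molecular identifiers. The libraries differed by more than counting error and were treated as separate samples.

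The family was read in both sperm libraries and was carried by miR-16-5p. All members together summed to 11294 reads in replicate 1, or 2789 CPM (interval 2738 to 2841), and to 9063 in replicate 2, or 1605 CPM (1572 to 1638). This is a mean of 2197 ± 837 CPM (SD, n = 2), or 0.220% of the miR reads. With at least 1 read in each library, 11 of the 13 members were detected, against 20% of all listed miRs. The exceptions were miR-16-1-3p, with 5 reads in replicate 1 only, and miR-497a-3p, with no read in either library. All 6 arms with the family seed were detected, with at least 28 reads in each library, and 5 of the 7 3p arms were, with 2 to 23 reads.

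miR-16-5p was read 9818 times in replicate 1, at 2424 CPM (interval 2377 to 2473), and 7195 times in replicate 2, at 1274 CPM (1245 to 1304), with a mean of 1849 ± 814 CPM (SD, n = 2). It ranked 21 by mean CPM among the 378 miRs read in both libraries, and the next member ranked 72. Its mean was 15.1 times that of the next member, miR-195a-5p, and this gap was far larger than the difference between the replicates. miR-16-5p made up 86.9% of the family's reads in replicate 1 (interval 86.3% to 87.5%) and 79.4% in replicate 2 (78.5% to 80.2%).

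**Figure D1:**
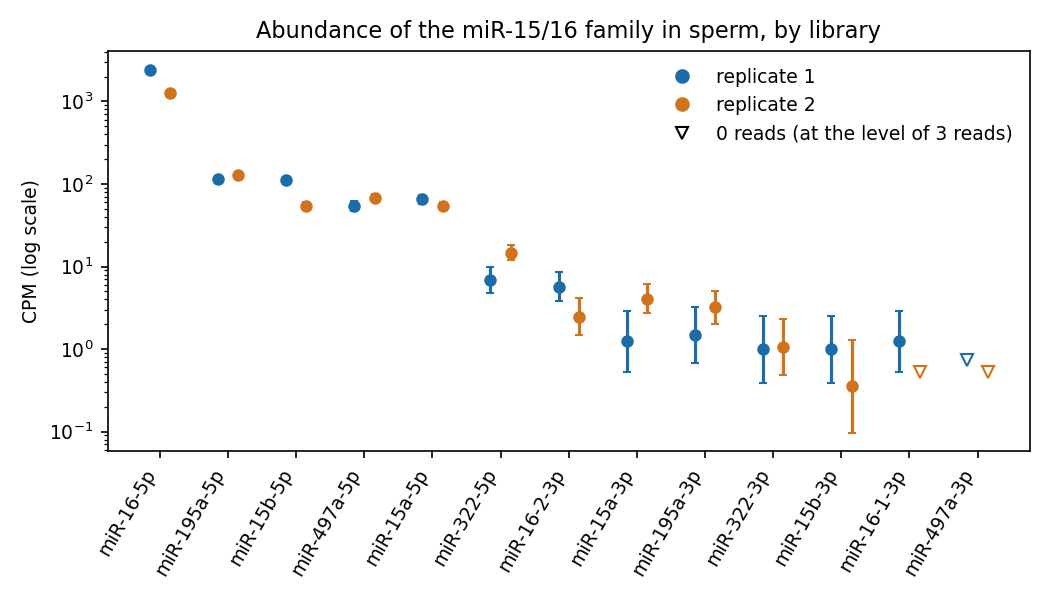
CPM of each member on a log scale, ordered by mean, with 1 point for each library and its 95% Wilson interval; open triangles mark libraries with 0 reads and stand at the level of 3 reads. miR-16-5p lies at 2424 and 1274 CPM, the next 4 members between 53.5 and 129 CPM, and every 3p arm below 6 CPM.

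The other 5p arms followed in 2 steps. miR-195a-5p had 467 and 731 reads, or 115 and 129 CPM. miR-15b-5p had 452 and 302 reads, or 112 and 53.5 CPM. Its higher library lay just below the lower library of miR-195a-5p, so these neighbours were separated, though by a margin that the counting intervals of the libraries span. miR-497a-5p had 219 and 386 reads, or 54.1 and 68.3 CPM, and miR-15a-5p had 263 and 303 reads, or 64.9 and 53.6 CPM. The ranges of miR-15b-5p, miR-497a-5p and miR-15a-5p overlapped, and their order was not the same in the replicates. Their means were 82.5 ± 41.1, 61.2 ± 10.1 and 59.3 ± 7.99 CPM (SD, n = 2), so their order was not resolved. miR-322-5p lay below all of them, with 28 and 83 reads, or 6.91 and 14.7 CPM, a mean of 10.8 ± 5.50 CPM (SD, n = 2).

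**Figure D2:**
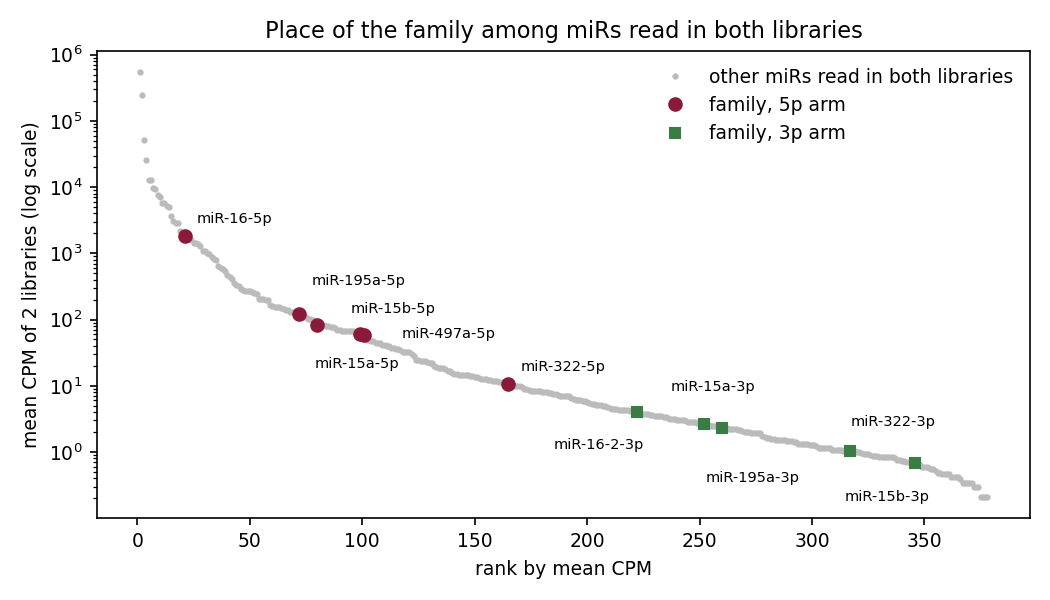
Mean CPM of the 2 libraries on a log scale against rank for the 378 miRs with a read in both, with the 5p arms of the family as circles and its detected 3p arms as squares. miR-16-5p stands at rank 21, the next 4 members between ranks 72 and 101, miR-322-5p at rank 165 and the 3p arms from rank 222 on.

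Reads of the family came almost entirely from the 5p arms, the side that carries the shared seed. The 5p arms took 99.6% of the family's reads in replicate 1 (interval 99.4% to 99.7%) and 99.3% in replicate 2 (99.1% to 99.5%). Of the 5 member hairpins with 3p and 5p entries of the same name, 4 had at least 100 reads in each library, and in all 4 the 5p arm held over 50% of the reads in both libraries. This held for 57.3% of the 89 such hairpins in the tables. One arm usually dominates in these libraries whichever side it is: the median share of the major arm over the 89 hairpins was 99.6%.

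Within the family the least one-sided hairpins were those of miR-322 and miR-15a. The 5p arm of miR-322 held 28 of 32 reads in replicate 1, or 87.5% (interval 71.9% to 95.0%), and 83 of 89 reads in replicate 2, or 93.3% (86.1% to 96.9%). For miR-15a it held 98.1% (95.7% to 99.2%) of 268 reads and 92.9% (89.6% to 95.3%) of 326 reads, since miR-15a-3p had 5 reads in replicate 1 and 23 reads in replicate 2. miR-15b was read on its 5p arm in 99.1% and 99.3% of its reads, and miR-195a in 98.7% and 97.6%. All 219 and 386 reads of miR-497a were on the 5p arm. The mean was 95.5% ± 3.67 (SD, n = 2) for miR-15a and 98.2% ± 0.802 (SD, n = 2) for miR-195a. The difference of these means was smaller than the SD of miR-15a and larger than that of miR-195a.

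The 3p arms gave the only reads that distinguish the hairpins of miR-16, and more of them came from Mir16-2. miR-16-2-3p, from chromosome 3, had 23 reads in replicate 1 and 14 reads in replicate 2. miR-16-1-3p, from chromosome 14, had 5 reads in replicate 1 and none in replicate 2, where 3 reads correspond to 0.531 CPM. Mir16-2 thus gave 82.1% of 28 reads (interval 64.4% to 92.1%) and 100% of 14 reads (78.5% to 100%). These are counts of the rarely kept arm. The 17013 reads of miR-16-5p cannot be divided between the hairpins.

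The 5p arms of the hairpins that neighbour those of miR-16 were compared as a further view of the same loci. miR-15a-5p, the neighbour of Mir16-1, made up 36.8% of the reads of miR-15a-5p and miR-15b-5p together in replicate 1 (interval 33.3% to 40.4%) and 50.1% in replicate 2 (46.1% to 54.1%). miR-15b-5p was thus the more abundant in replicate 1, and in replicate 2 the reads of both were nearly equal. miR-16-5p had 13.7 times the reads of miR-15a-5p and miR-15b-5p together in replicate 1 and 11.9 times in replicate 2.

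miR-195a-5p and miR-497a-5p, whose hairpins lie side by side on chromosome 11, kept about the same proportion in each library. miR-195a-5p had 2.13 times the reads of miR-497a-5p in replicate 1 and 1.89 times in replicate 2, and its share of the pair was 68.1% (interval 64.5% to 71.5%) and 65.4% (62.6% to 68.2%), with overlapping intervals. As a locus these hairpins gave 6.13% of the family's reads in replicate 1 and 12.5% in replicate 2. For comparison, the reads of the chromosome 14 hairpins other than miR-16-5p gave 2.42% and 3.60%, those of the chromosome 3 hairpins 4.24% and 3.51%, and Mir322 gave 0.283% and 0.982%. Efficiency of ligation and amplification differs between sequences and was not measured, so ratios between miRs of a library are ratios of reads.

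**Figure D3:**
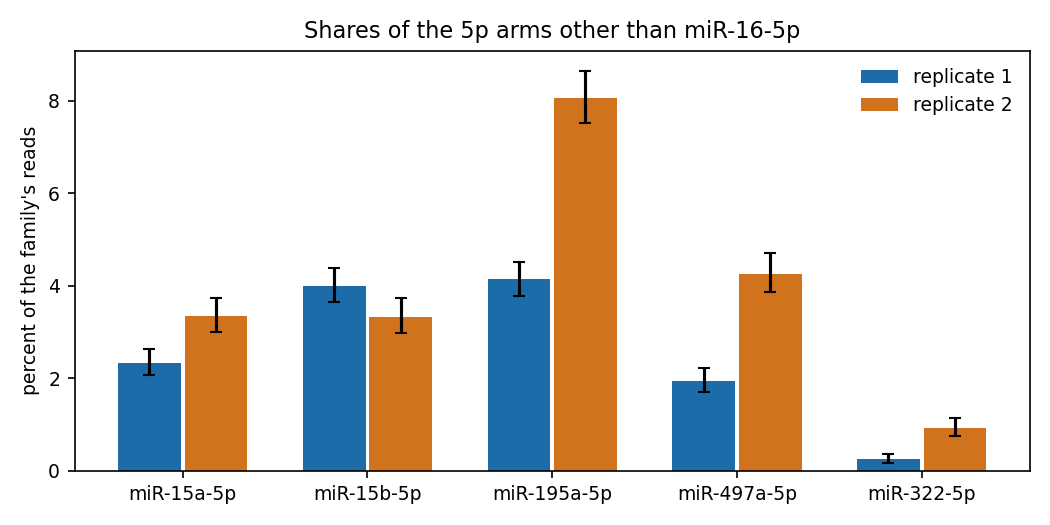
Percent of the family's reads on each 5p arm other than miR-16-5p, with 1 bar for each library and its 95% Wilson interval. miR-195a-5p, miR-497a-5p and miR-322-5p took a larger share in replicate 2, at 8.07%, 4.26% and 0.916%, than in replicate 1, at 4.13%, 1.94% and 0.248%.

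Mir322 belongs to a group of hairpins on chromosome X, and its neighbours were read at very unequal levels. Mir503 (chrX:53053984-53054054) lies 200 bases from Mir322 and Mir351 (chrX:53053255-53053353) another 630 bases on, all on the same strand. miR-503-5p, which starts like the family, had no read in either library. It is shown with its seed in capitals, which differs from the family's in its last base.
miR-503-5p: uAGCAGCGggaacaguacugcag
miR-503-3p had no read in replicate 1 and 3 reads in replicate 2. miR-351-5p, in contrast, had 354 and 733 reads, or 87.4 and 130 CPM, which was 12.6 times the reads of miR-322-5p in replicate 1 and 8.83 times in replicate 2. The hairpins farther along, of miR-542, miR-450a and miR-450b, had at most 11 reads on any arm in a library. miR-503-5p was thus not detectable at this depth, while miR-322-5p was read in each library and miR-351-5p at a several-fold higher level.

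Among listed miRs with a sequence, none outside the members added reads to the seed AGCAGCA. Its other 4 carriers there, miR-195b, miR-6342, miR-6353 and miR-6419, had no read in either library. Mir195b, despite its name, lies on chromosome 2 (chr2:56785811-56785907). miR-497b, from the strand opposite to Mir497, also had no read. The reads of this seed, over the listed miRs with a sequence, are thus those of the 6 members, 2777 CPM in replicate 1 and 1593 CPM in replicate 2.

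The family did not move as one between the replicates. Ratios are given as log2 of CPM + 1 in replicate 2 over replicate 1, with a counting interval of the ratio of CPM. The summed family had a log2 ratio of -0.80 (interval -0.84 to -0.76). The median over the 323 miRs that reached a sum of 10 reads over both libraries was -0.25, and TMM scaling moved that median up by 0.30, so values relative to the median are given too. miR-16-5p had a log2 ratio of -0.93 (interval -0.97 to -0.88) and miR-15b-5p of -1.05 (-1.28 to -0.85), which lie 0.68 and 0.80 below the median of all. miR-15a-5p had -0.27, which is close to that median, and its sign turned under TMM scaling, to 0.07, and under DESeq2 scaling. miR-195a-5p had 0.17 (interval -0.003 to 0.34), miR-497a-5p had 0.33 (0.09 to 0.58) and miR-322-5p had 0.99 (0.45 to 1.76), or 0.41, 0.58 and 1.23 above the median of all. The signs of miR-16-5p, miR-15b-5p, miR-195a-5p, miR-497a-5p and miR-322-5p were the same with the miR total, TMM, DESeq2 and the other denominators tried. Only 1 library stands on each side, so these ratios compare libraries, not conditions.

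With a threshold of 2-fold, 2 of the 10 members that reached this sum differed between them, against 19.8% of all 323 such miRs. miR-15a-3p was higher in replicate 2, with 23 reads against 5, where 3.1% of all were higher. miR-15b-5p was lower, where 16.7% of all were. The shares of members are near the shares of all miRs or rest on 1 member, and nothing about the family is read from them. miR-322-5p fell just short of the threshold with the 1 CPM added. With 0.1 CPM added, 5 of the 10 members passed, namely miR-15a-3p, miR-195a-3p and miR-322-5p, which were higher in replicate 2, and miR-15b-5p and miR-16-2-3p, which were lower, against 30.7% of all.

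**Figure D4:**
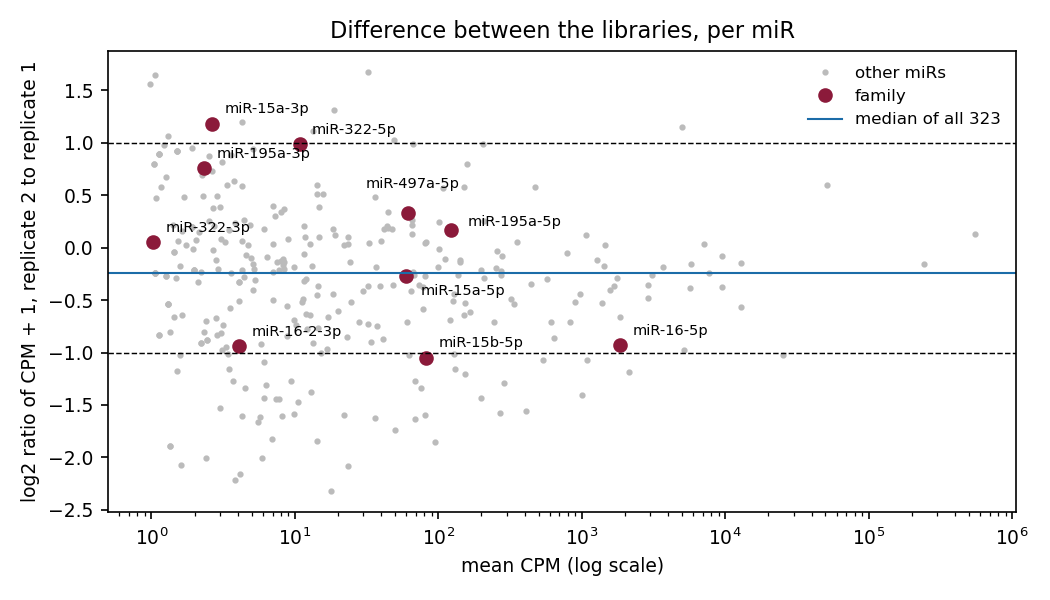
Log2 ratio of CPM + 1, replicate 2 to replicate 1, against mean CPM on a log scale for 323 miRs with a sum of 10 or more reads over both libraries; dashed lines mark 2-fold and the solid line the median of all. miR-16-5p at -0.93 and miR-15b-5p at -1.05 lie below the median of -0.25, and miR-195a-5p, miR-497a-5p and miR-322-5p, at 0.17, 0.33 and 0.99, lie above it.

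Marker miRs of other cells moved between the libraries as well, and their part in the family's values was not tested. In bulk samples, more cells of a type and more RNA per cell cannot be told apart. Of the 12 entries listed for blood cells, 9 were detected and miR-486b-3p was at 0 in both libraries. Their sum was 3326 CPM in the first replicate and 7224 CPM in the other, nearly all of it on the joined entry of miR-486a-5p and miR-486b-5p, and 223 and 333 CPM without that entry. The list did not move as one: miR-223-3p, a marker of myeloid cells, had 15.8 and 9.74 CPM, miR-150-5p, a marker of lymphocytes, had 39.3 and 41.1 CPM, and miR-142a-3p had 4.20 and 4.43 CPM. Higher in replicate 2 were miR-144-3p, with 14.8 and 49.6 CPM, and miR-144-5p, with 10.4 and 27.3 CPM. Among the detected entries of this list, only miR-223-3p was lower in replicate 2. miR-451a, a marker of red blood cells, had 44.2 and 88.9 CPM, while miR-16-5p had its higher value in replicate 1. Of the 9 entries for smooth muscle and stroma, 8 were detected and miR-143-5p was at 0. Their sum was 41332 and 62579 CPM, and 483 and 685 CPM without miR-143-3p. This list was higher in replicate 2, as were miR-497a-5p and miR-322-5p. With the miR total as denominator, miR-195a-5p was higher by no more than its counting error, at a log2 ratio of 0.17. That ratio was 0.51 under TMM and 0.50 under DESeq2 scaling.

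Of the 23 entries for male germ cells, 11 were detected, and their sum was 4209 and 1746 CPM, lower in replicate 2 as miR-16-5p and miR-15b-5p were. The entries at 0 in both libraries were miR-449a-3p, those of miR-449b and miR-449c, miR-741-3p, miR-743b-5p, miR-871-5p, miR-880-5p, miR-881-5p and miR-883b-3p. For miR-743b, miR-871, miR-880 and miR-881 only the 5p arm is among the listed miRs, and for miR-741 only the 3p arm. Reads of their other arms could not be counted. miR-34c-5p, known from late spermatogenesis, had 2983 and 1314 CPM, and the list without it summed to 1227 and 433 CPM. Of the 12 entries for epithelium, 11 were detected, with sums of 10773 and 8824 CPM, and miR-429-5p was at 0. The log2 ratio of these sums was -0.29, close to the median of -0.25 over the 323 miRs. Without miR-141-3p the sums were 2408 and 1746 CPM. This list did not move as one either. miR-205-5p was higher in replicate 2, with 138 and 274 CPM. miR-141-5p, with 29 and 54 reads, was higher by no more than its counting error (interval of the log2 ratio -0.26 to 1.12). miR-200c-5p had 1 and 2 reads, too few to give a direction. With the miR total as denominator, the other detected entries were lower in replicate 2. For miR-200a-5p and miR-205-3p this was by no more than counting error. The libraries therefore hold miRs known from germ cells, blood, stroma and epithelium. The cell of origin of the family's reads cannot be told from them.

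Other families chosen for comparison gave a scale for these levels. The miR-17-92 family, with 30 entries and taken here to include miR-25, summed to 2294 and 1152 CPM, a range that overlaps that of the miR-15/16 family. Its largest entry was miR-25-3p, at 1467 and 698 CPM, and without it the sum was 827 and 454 CPM. The miR-23/27/24 family, with 11 entries, summed to 3677 and 2914 CPM, above the miR-15/16 family in each library. The miR-29 family, with 7 entries, summed to 346 and 286 CPM, several-fold below it. The log2 ratios of the summed values were -0.99 for the miR-17-92 family, -0.34 for the miR-23/27/24 family and -0.27 for the miR-29 family, beside -0.80 for the miR-15/16 family. With 1 condition no test of these differences was possible.

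**Figure D5:**
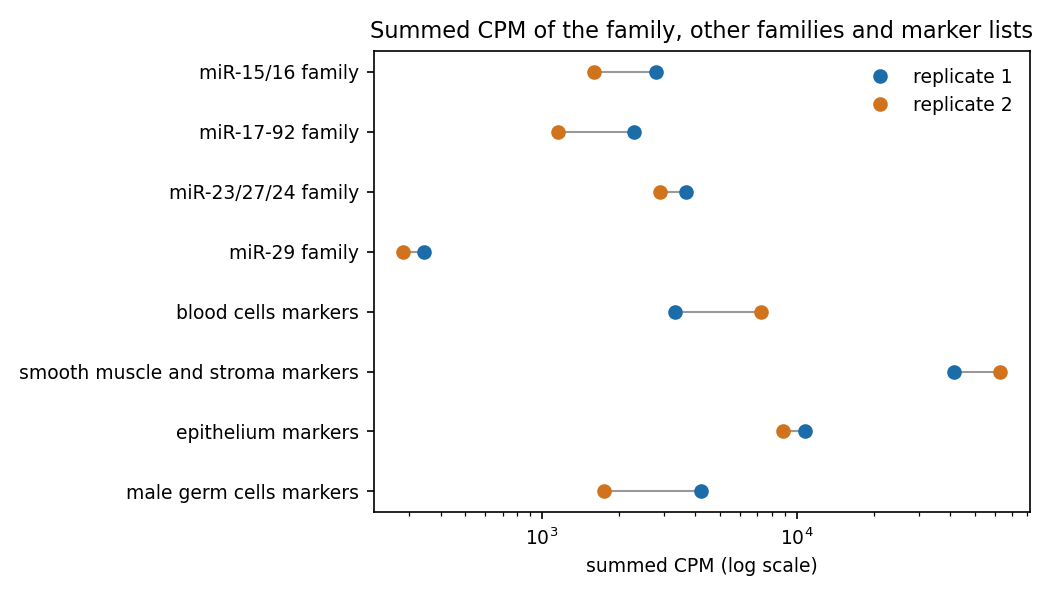
Summed CPM on a log scale of the miR-15/16 family, 3 other families and 4 lists of marker miRs, with 1 point for each library. The family lies at 2789 and 1605 CPM, and the sums of the blood list, which rests on miR-486a-5p and miR-486b-5p, and of the list of smooth muscle and stroma, which rests on miR-143-3p, are higher in replicate 2, while that of male germ cells is lower.

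The miRs whose levels were most like that of miR-16-5p, by distance of log2(CPM + 1) over the 2 libraries, were miR-30d-5p, miR-34c-5p, miR-375-3p, miR-125b-5p and let-7g-5p. miR-30d-5p had 2277 and 1439 CPM, at a distance of 0.20, and let-7g-5p had 1780 and 1345 CPM, at 0.45. With 2 libraries this likeness is one of level and of a single ratio.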

How the data were processed

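Small RNA of sperm was sequenced in 2 libraries of 1 group. Per the methods and the submitters' processing notes, reads were trimmed, freed of adapters with cutadapt 1.8.1, kept from 15 nucleotides on and mapped with Bowtie 1.1.2, first without mismatches to miR and piRNA sequences. HTSeq is named as a further tool. Read counts were summarised by the study with its own Python script. The mapping step whose reads were counted and the miR annotation release are not given in the sources used here. The authors deposited the whole-number count of reads on each of 1886 mature miRs, not normalized and not pooled. Mapping without mismatches omits reads with added or altered end bases. Reads assigned to no miR, 38.1% and 26.3% of those listed, were left out of the totals. None of the 12 entries that join several miR names is a member.

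CPM, Wilson 95% intervals and exact (Clopper-Pearson) intervals of ratios were computed in Python 3.11.15 with scipy 1.17.1, pandas 2.3.3 and numpy 2.4.6. Figures were drawn with matplotlib 3.10.9. TMM factors came from edgeR 4.0.16 and size factors from DESeq2 1.42.0 in R 4.3.3, as alternative scalings. No test was run between conditions. Detection required 1 or more reads from each of the libraries. A pseudocount of 1 CPM was used for log2 ratios, which were counted over miRs whose reads summed to 10 or more over both libraries. Sequences are from RefSeq (GRCm38.p6) and gene positions from GENCODE (GRCm38). The hairpins present in both annotations had the same coordinates. The log2 ratios, the calls past 2-fold and the counting intervals of ratios were tested on simulated libraries that differed by counting error and set changes only. The real libraries differed by more than counting error, and the other computations were not tested in this way.

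Named miRs were all members, their neighbouring hairpins, carriers of the same seed, the 5 miRs nearest to miR-16-5p in level and summed comparison families. The members and lists were chosen with earlier results of these data known. Marker lists were written from general knowledge. Alternatives were the scaling, denominator, depth, read minimum, pseudocount, entries included and each library alone.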

Additional observations from a re-analysis of the deposited data

How the results depend on the processing

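The family's mean abundance, 2197 CPM, and that of miR-16-5p, 1849 CPM, moved by more than 1 SD of the replicates only when miR-10a-5p and miR-10b-5p were left out of the denominator, to 10422 and 8752 CPM. With all listed reads as denominator they were 1454 and 1219 CPM, lower by more than 1.5 times but within 1 SD, which is wide with 2 libraries. Both alternatives change the denominator by construction. Without one replicate each, the family lay between 1605 and 2789 CPM, miR-16-5p between 1274 and 2424 CPM, the share of miR-16-5p between 79.4% and 86.9%, the 5p share between 99.3% and 99.6%, and the members detected between 11 and 12. By construction, either of 2 libraries is less than 1 SD from the mean, and nothing is read from these ranges. Leaving out joined entries or adding other miRs of the same seed changed no value, since no member is joined and the added miRs had no reads. The number of members detected was 11 and fell to 7 when 10 reads and to 6 when 20 reads were required in each library. The family's log2 ratio between replicates was -0.80, and -0.45 under TMM, -0.45 under DESeq2, -0.54 with all listed reads and -0.63 without miR-10a-5p and miR-10b-5p as denominator. The members past 2-fold were 2 of 10, became 1 (miR-15b-5p) when the reads had to sum to 100 or more, and 5 with 0.1 CPM added. No paired analysis was possible because there is 1 group. The 3p arms, with at most 23 reads in a library, are limited by depth.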
